A study of Mus musculus with 12 samples.

Results

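The single-base variant sites described here appeared in cells undergoing reprogramming and were listed in neither library of the starting fibroblasts. They were chosen by coverage and listing: a site had 20 or more reads in at least 2 of the 10 reprogrammed tables, was absent from both mouse embryonic fibroblast (MEF) tables, and lay in a gene with another single-base site read 20 or more times in both MEF1 and MEF2. That rule selected 202 sites in 57 genes, of 6478 single-base sites with such coverage in any table. They were part of 1508 newly listed positions with that coverage, 1309 of which had a single gene name in the tables. The number depends on the limits: 1247 sites passed at 10 or more reads and 5 at 50 or more, and 504 or 452 passed when MEF2 alone or MEF1 alone stood for the fibroblasts. The genes that hold the 202 sites were therefore already transcribed and already carried a readable variant in fibroblasts, and the sites are called newly listed sites below.

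In female mammals 1 X chromosome is silenced in each cell, so reads from a fibroblast population that uses mostly 1 parental X show mostly 1 allele at each X-linked variant. Reprogramming to pluripotency reverses this silencing, and RNA from the previously silent X then adds the other allele. Some genes, known as escape genes, are read from both X chromosomes even while 1 is inactive. A position that an MEF table does not list was read as reference, held fewer variant reads than the table lists, or was covered by fewer than 10 reads, and the tables do not tell these apart.

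RNA was read from MEF and from MEF carrying SeVdp(fKOSMaB), a Sendai virus vector that delivers reprogramming factors. LowK cells received no Shield1 and were read at days 35, 52 and 56. MidK1 cells, read on the same days, and MidK2 cells, read at days 18, 22, 29 and 36, received 30 nM Shield1, a small molecule that keeps proteins carrying a destabilising domain from being degraded. There were 2 MEF libraries and 1 library for each course and day, all 10 of the latter carrying the vector, so differences between libraries have no replicate check. No strain, sex or clone was given in the labels used here. The tables hold variant reads and coverage, not expression levels, and the summed coverage of single-base sites with 20 or more reads was 150198 and 210831 reads in MEF1 and MEF2 and 138579 to 279031 in the reprogrammed libraries. Of 28 X-linked genes listed as fibroblast-expressed, 17 had a single-base site of 20 or more reads in both MEF tables, called an MEF-listed site in what follows.

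Several sites in coding sequence show what sets the groups of newly listed sites apart, and their surroundings are given in mm10, read from the sense strand of GENCODE M21 transcripts. The site's reference base is in capitals, at position 15 counted from 1 at the 5′ end of each 29-base window. Flna G15C (exon 44), in the 5 libraries that listed it, had variant shares close to the share of reference reads at the gene's other sites. Flna A15G (exon 37) is the gene's other newly listed site. Hmgn5 T15A and Hmgn5 A15G (both exon 6) and Dkc1 G15T (exon 14) were read deeply at low variant shares. Ammecr1 A15G, at 2 sites of exon 5, was read as variant in every read. Zrsr2 C15A and Zrsr2 A15G (exon 11) lie in a repeat with intermediate shares. The sequences of the second Flna site and of Zrsr2 were added after their values were seen, and the others follow the rule for named sites.
Flna chrX:74224796-74224824 (minus strand): gccaaaggcctgggGctaagcaaggctta
Flna chrX:74227935-74227963 (minus strand): tctgtgaaggtgacAggtgagggccgggt
Hmgn5 chrX:109005546-109005574 (minus strand): tggaaaggaagatcTgcatgaggaagatg
Hmgn5 chrX:109005458-109005486 (minus strand): gaaggtcagcctgaAgaagatggaaagga
Dkc1 chrX:75108236-75108264 (plus strand): gaaaagaagaagaaGaaggataagaagcc
Ammecr1 chrX:142857500-142857528 (minus strand): ggatacaaagctccAattactaatgaatt
Ammecr1 chrX:142857530-142857558 (minus strand): cagaccatagactcAttactgagaaaagg
Zrsr2 chrX:163936481-163936509 (minus strand): gccggagcaggagcCggagccggagcagg
Zrsr2 chrX:163936490-163936518 (minus strand): ggggccggggccggAgcaggagccggagc

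The variant share of a site is the percentage of its reads that carried the listed variant. Averaged over the libraries that listed each site, the share was above 80% at 104 sites in 28 genes, between 20 and 80% at 35 sites in 18 genes, and below 20% at 63 sites in 32 genes. These ranges are a description. The rule named no limit on the share, but the tables list variants only from 5 or 10% upward. Means over the libraries that listed a site therefore leave out lower shares. In all, 27 sites lay within 5 points of a range limit (2 of them among the sites above 80%, 8 among the intermediate sites and 17 among the low ones). Coverage per site and library ran from 20 to 669 reads with a median of 31. A share of 100% from 20 to 40 reads therefore has a wide interval and does not exclude the other allele at a low share. Few sites were seen everywhere: 9 were listed in all 10 reprogrammed tables and 52 in exactly 2. The 4 MidK2 tables listed 113 to 151 of the 202 sites and the 6 of LowK and MidK1 between 41 and 80. The MidK2 and MEF2 tables held variants from 2 reads and 5% upward and the other 7 tables from 5 reads and 10% upward. The summed coverage of all single-base sites was 205637 to 279031 reads in MidK2 and 138579 to 173722 in LowK and MidK1. The part of either in the number of sites listed was not tested. In total 72 sites were listed only in MidK2 tables, and these were 34 of the low sites, 6 of the intermediate sites and 32 of the high sites.

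**Figure D1:**
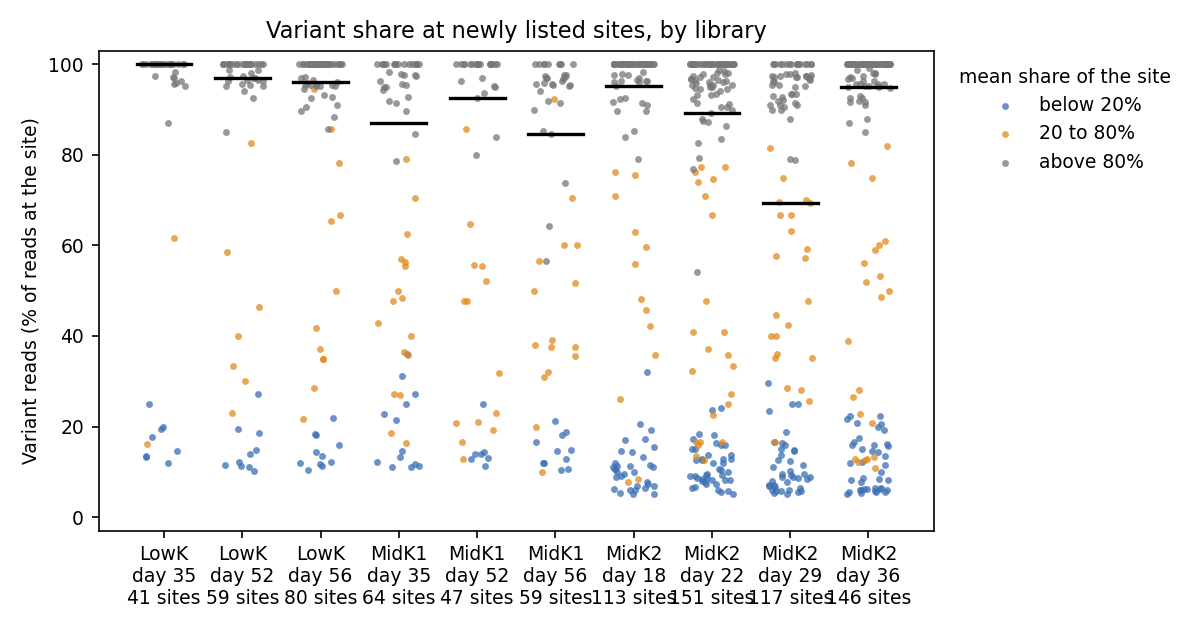
Variant share (%, vertical axis) of every newly listed site in the 10 reprogrammed libraries (horizontal axis, with the number of sites listed), coloured by the site's mean share. Black bars are library medians, which ran from 69.4% in MidK2 at day 29 to 100% in LowK at day 35, and the points gather near both ends of the scale.

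The 10 genes with most held 115 of the 202 sites. Among them Ammecr1 had 17 and Dkc1, which encodes the pseudouridine synthase dyskerin, had 12. Eif1ax (a translation initiation factor) and Zrsr2 (a splicing factor of the minor spliceosome) had 10 each, and Foxo4 (a forkhead transcription factor) and Mmgt1 (a subunit of the endoplasmic reticulum membrane complex) had 9 each. Snx12, a sorting nexin, and 1810030O07Rik had 8 each and Hmgn5, a nucleosome-binding protein, had 7. Efnb1, the ligand ephrin-B1, and Rpl36a, a ribosomal protein, had 4 each, as did Gpkow and Chm with fewer reads. At the other end 23 genes held a single site. Sites of 1 gene share reads and are not independent, and 114 of the 202 lay within 75 bases of another newly listed site.

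**Figure D2:**
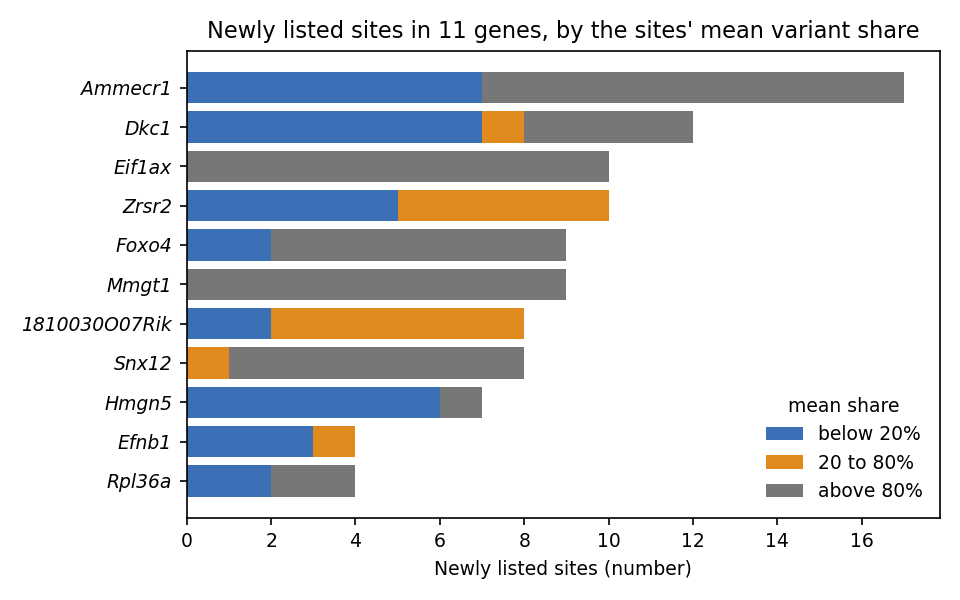
Number of newly listed sites (horizontal axis) in 11 of the genes that held most, split by the site's mean variant share. Eif1ax, Mmgt1, Snx12 and Foxo4 held mostly sites above 80%, whereas Hmgn5 held 6 of 7 below 20% and 1810030O07Rik 6 of 8 between 20 and 80%.

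Ammecr1 combined both extremes. The 2 coding sites printed above were 100% variant in every library that listed them, with 22 to 33 reads in each of 7 and 5 libraries. Its 10 sites above 80% were 999 or more bases from any position that both MEF tables listed, with 1 exception, position 142852314 at 375 bases. Its 7 low sites lay between 4 and 302 bases from one. The most widely listed low site, 142853518 in the 3′ untranslated region, had 20, 27.3 and 18.4% variant reads in LowK, 11.1, 14.3 and 12.7% in MidK1 and 13.3, 17.3, 16.7 and 13.4% in MidK2, in day order.

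Foxo4 had 7 sites with mean shares of 94.0 to 98.9%, 5 of them in coding sequence, and 2 sites of 7.62 and 8.86% in the 3′ untranslated region. The 10 sites of Eif1ax had mean shares of 94.0 to 100% and the 9 of Mmgt1 93.5 to 100%. The Eif1ax sites 159388076, 159388079, 159388082, 159388092 and 159388102 lay 0 to 15 bases from a listed insertion, deletion or multi-base variant. Capn6, a calpain without protease activity, had 3 sites of 94.3 to 98.6%. Its site at 143802370 was the most deeply read of the high sites, with 1046 reads summed over all 10 libraries and shares of 87.3 to 100%. In the whole group, 69 of the 104 high sites were in 3′ untranslated regions, 18 in coding sequence, 12 in introns and 5 in noncoding exons. Their median distance to the nearest position listed in both MEF tables was 1488 bases, against 444 bases for all newly listed sites. In the 28 genes with such sites the median coverage of MEF-listed sites was 26.8 reads in MEF1 and 29.8 in MEF2, against 66.0 in LowK at day 56, 73.2 in MidK1 at day 56 and 88.0 in MidK2 at day 36. In the 32 genes with a low site the same medians were 30.2, 37.0, 60, 59.5 and 72.8 reads, and in the 18 with an intermediate site 31.0, 37.0, 54.5, 62.0 and 73.8. In the 108 genes with an MEF-listed site and no newly listed one they were 35.5, 42.8, 48.0, 52.0 and 59.0 reads. The part that coverage has in the listing of these sites was not tested.

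Of the 63 sites below 20%, 27 lay within 38 bases of a position listed in both MEF tables, against 3 of the 104 high sites and 563 of the 1188 MEF-listed sites. The median distance to such a position was 62 bases for the low sites and 42 for the MEF-listed sites. At 16 newly listed sites a single-base site within 38 bases had 20 or more reads in both MEF tables. The median distance to a listed insertion, deletion or multi-base variant was 7 bases for the low sites, 32 for the intermediate sites, 119 for the high sites and 457.5 for the 1188 MEF-listed sites. Within 10 bases of such a variant lay 52.4% of the low sites, 13.5% of the high sites and 6.31% of the MEF-listed sites. Transitions, the more frequent kind of germline single-base difference, made up 39.7% of the low sites, 42.9% of the intermediate sites, 58.7% of the high sites and 68.7% of the MEF-listed sites. For sites in exons, the 11 bases centred on the site, written with the variant base, also occurred elsewhere in the gene's own reference transcript at 10 of 62 low sites (16.1%), 3 of 28 intermediate sites, 2 of 92 high sites (2.17%) and 26 of 1170 MEF-listed sites (2.22%). The 2 high sites were 159388076 and 159388092 of Eif1ax. The shares in this paragraph are descriptions without a test, and whether alignment within repeats gave rise to any low or high site was not tested.

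**Figure D3:**
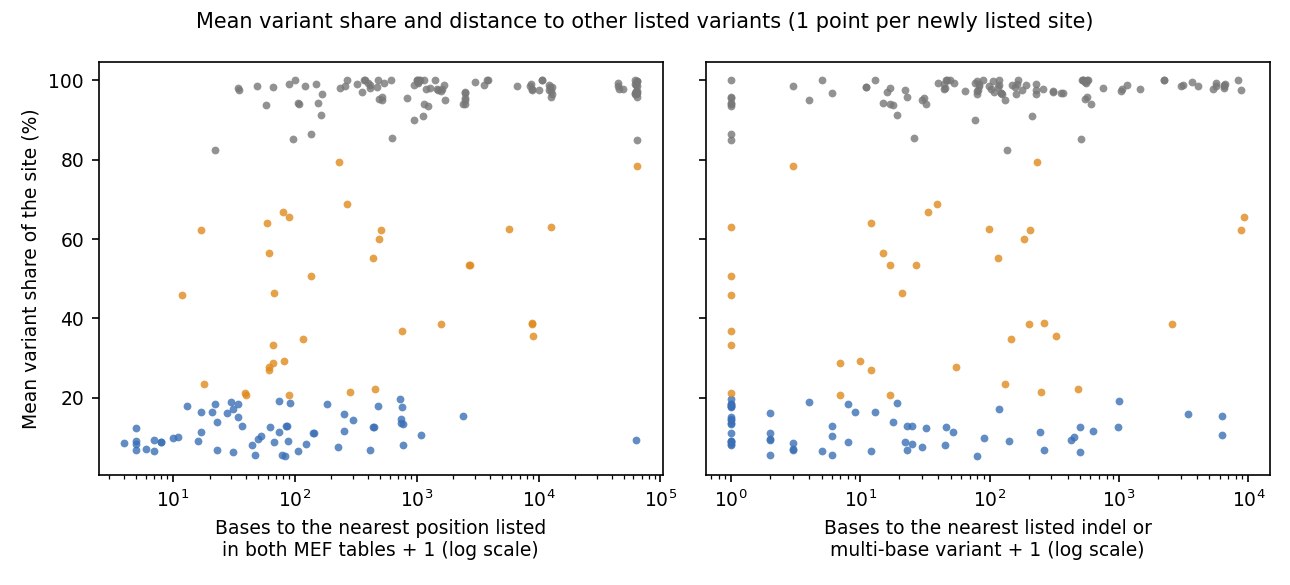
Mean variant share (%, vertical axis) of each of the 202 newly listed sites against its distance in bases, plus 1 and on a log scale, to the nearest position listed in both MEF tables (left) and to the nearest listed indel or multi-base variant (right). Colours are the ranges below 20% (blue), 20 to 80% (orange) and above 80% (grey), with median distances on the left of 62, 136 and 1488 bases.

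Hmgn5 shows the low pattern at the greatest depth. The site T15A in the first Hmgn5 window had 33 variant reads of 325 and 47 of 387 in LowK at days 52 and 56, that is 10.2 and 12.1%. MidK1 gave 11.1 and 10.4% at days 35 and 56, and MidK2 gave 5.38 and 5.62% at days 18 and 29. The 2 MidK2 values were below the 4 others and below the 10% from which the other tables list a variant, so unlisted libraries may hold values of the same size. The neighbouring site A15G had 11.9, 14.8 and 13.4% in LowK, 12.1, 12.7 and 10.7% in MidK1, and 9.89 and 6.36% in MidK2 at days 18 and 36. The gene's MEF-listed sites had reference shares of 0.0929 to 1.55% in these libraries, and its high site 109004819 had 97.2 to 100% variant reads in all 10. The 11 bases around A15G with its variant base occurred elsewhere in the same transcript.

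In Dkc1, the site G15T sits in the repeat of aag triplets shown in its window, 3 bases from the MEF-listed position 75108247, and was listed only in MidK2, at 6.01, 9.07, 11.4 and 8.24% from day 18 to day 36. Within 40 bases of its 3′ untranslated region Dkc1 held 7 more sites, 6 of them C-to-A changes whose variant context recurred in the transcript, with mean shares of 13.4 to 36.8%, and an A-to-C change at 8.10%. Zrsr2 held all 10 of its sites within 59 bases of exon 11, partly within the stretch printed above, with mean shares of 10.3 to 66.9%. The site C15A had 27.3, 47.8 and 35.5% variant reads in MidK1 and 63.0, 47.6 and 57.7% in MidK2 at days 18, 22 and 29, and was unlisted at this coverage in LowK. The lowest mean shares of all were 5.28% at Magt1 105969718, 5.49% at Efnb1 99147953 and 5.56% at Rlim 103959147, each listed in 2 MidK2 libraries only, from 2 variant reads each in Magt1 and Efnb1 and 8 each in Rlim, a ubiquitin ligase that promotes X inactivation.

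Whether a newly listed variant belonged with the reference or with the variant reads of its gene was tested for each site and library. The reads of the site were set against those summed over the gene's MEF-listed sites in the same library, by Fisher's exact test (two-sided), with Benjamini-Hochberg adjustment over all 15003 site-library pairs. A pair was called at an adjusted p under 0.05 with a difference of 20 or more percentage points. Of 873 pairs of newly listed sites, 607 (69.5%) were called against the reference reads, where 86.6% of all pairs were called. Against the variant reads 325 (37.2%) were called, where 12.6% of all pairs were. All pairs include those of the MEF-listed sites themselves, each set against the gene's other MEF-listed sites. The rule keeps such sites out of the newly listed ones, so the shares over all pairs are not an expectation for them. A pair called against the reference reads only is said to stand with the variant reads. One called against the variant reads only is said to stand with the reference reads. These names do not mean that the shares were equal. In combination, 510 pairs were called against the reference reads only, 228 against the variant reads only, 97 against both and 38 against neither. These were 58.4, 26.1, 11.1 and 4.35% of the pairs of newly listed sites, where the same outcomes made up 81.7, 7.63, 4.97 and 5.75% of all pairs. Dkc1 alone gave 33 of the 97 pairs called against both. All 202 sites had at least 1 tested pair, 101 of them with every pair called against the reference reads only and 46 with every pair called against the variant reads only. The matching counts over all 2751 sites tested are not given here, so these are descriptions only.

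Most of the 228 pairs that stood with the reference reads did so at low shares on both sides. Their median variant share was 12.5% and the median reference share of their genes 6.70%, and the reference share was under 20% in 162 of them. Where both shares were under 20% they could not differ by 20 points, so no call against the reference reads was possible. For such pairs the limit set the outcome, which shows no agreement with the reference reads. In 91 of the 228 the site still differed from the reference share at an adjusted p under 0.05 by Fisher's exact test, by less than 20 points, as in every listed library of the Hmgn5 site T15A. The 510 pairs that stood with the variant reads had a median variant share of 100% and a median reference share of 1.91%.

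**Figure D4:**
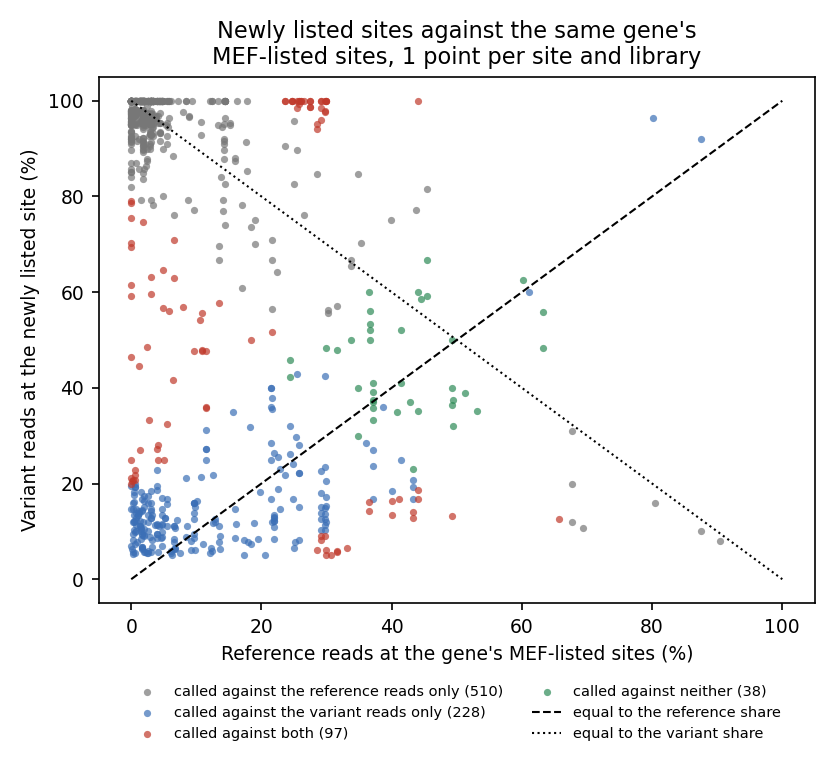
Variant share of each newly listed site (%, vertical axis) against the reference share at the MEF-listed sites of the same gene and library (%, horizontal axis), 873 site-library pairs coloured by test outcome. The dashed line marks equality with the reference share and the dotted line equality with the variant share, and most pairs gather at reference shares below 20%, near the top left and bottom left corners.

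Reference shares of 20 to 80% were found for 178 pairs, from 55 newly listed sites in 20 genes. Here 64 pairs stood with the reference reads, 24 with the variant reads, 52 with neither side (called against both) and 38 were called against neither. These were 36.0, 13.5, 29.2 and 21.3% of the pairs, where 8.62, 45.8, 15.9 and 29.6% of the 2912 pairs of all sites in that range had those outcomes. Within 10 points of the reference share lay 45 of the 178 pairs (25.3%), against 17.8% of those 2912. Those 2912 also include the pairs of the MEF-listed sites themselves. Over these pairs, 18 of the 55 sites were called at least once against the variant reads and never against the reference reads, 14 the reverse, 20 were called in both ways and 3 in neither. The matching counts over all 809 sites in that range are not given here. Dkc1 supplied 61 of the 178 pairs and 12 of the 55 sites, and its reference share rested on 1 repeat position. Without Dkc1, a choice made after seeing the data, 117 pairs from 43 sites remained, of which 40 stood with the reference reads, 21 with the variant reads, 19 were called against both and 37 against neither, and 38 (32.5%) lay within 10 points of the reference share. Shares over the pairs of all sites without Dkc1 are not given here.

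Flna G15C and a site of Dynlt3 had high variant shares in the libraries where the reference share was high, and Dynlt3 was chosen for this after its values were seen. Flna encodes filamin A, which crosslinks actin filaments, and was read at its MEF-listed sites with a median of 589.5 reads in MEF1 and 522.5 in MEF2. At the Flna site G15C the variant share was 11.7% in LowK at day 56, where the reference share was 12.5%, and 14.8% in MidK1 at day 56, where it was 15.9%. In MidK2 the site had 10.7, 24.1 and 18.8% at days 18, 22 and 29, beside reference shares of 6.80, 24.8 and 22.6%. All 5 differences were within 4 points, the 95% interval of each included 0, and all 5 pairs were called against the variant reads only. The Flna site A15G had 21.7, 16.7 and 25.6% in LowK at day 56 and MidK2 at days 22 and 29, beside 12.5, 24.8 and 22.6%, with 23, 30 and 43 reads. It differed by 9.19, -8.18 and 2.96 points, and the 95% interval of each difference included 0.

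Dynlt3 encodes a light chain of the dynein motor. Its site 9655269, in the 3′ untranslated region, had 23.1 and 28.6% variant reads in LowK at days 52 and 56, 48.3, 55.8 and 60% in MidK1 at days 35, 52 and 56, and 7.69, 16.7, 35.2 and 38.9% in MidK2 at days 18, 22, 29 and 36. The reference share over 19 or 20 other sites was 22.9 and 36.1%, then 63.2, 63.3 and 61.1%, then 18.0, 41.1, 53.2 and 51.3%. Both were highest in MidK1 and lowest in MidK2 at day 18. The site's share was below the reference share in 8 of 9 libraries, by 24.4 points in MidK2 at day 22, the only library of the 9 called against the reference reads (Fisher's exact test, adjusted p = 0.000562). The median difference was -10.3 points.

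The 8 sites of 1810030O07Rik, within 345 bases of its 3′ untranslated region, had mean shares of 17.2 to 29.4%. They were compared with a single MEF-listed site, which had 95.8 and 90.9% variant reads in the MEF libraries and 32.4 to 82.8% in the reprogrammed ones. At 12655324 the variant share was 30.0 and 37.0% in LowK at days 52 and 56, 18.5, 23.1 and 31.0% in MidK1, and 26.1, 16.7, 40.0 and 26.5% in MidK2, where the reference share ran from 21.4 to 67.6%. Of its 9 pairs 5 were called against the variant reads only, 3 against neither and 1, MidK1 at day 56, against the reference reads only. These pairs rested on 20 to 41 reads on each side. Over all 40 pairs of the gene, 23 were called against the variant reads only and 10 against neither. Another 3 were called against the reference reads only and 4 against both. The sites 12655526 and 12655539 were each called against the reference reads in 3 libraries. Their lowest differences from the reference share were -47.6 and -55.7 points.

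Other sites lay nearer the variant share of their gene in most or all of their libraries. Plp2 encodes a membrane protein of the endoplasmic reticulum. Its site 7671247, in the 5′ untranslated region, had 58.6% variant reads in LowK at day 52, 10% in MidK1 at day 56, and 76.2, 35.2 and 12.6% in MidK2 at days 22, 29 and 36. The reference share in those libraries, at the gene's single MEF-listed site, was 44.4, 87.5, 26.6, 44.1 and 65.7%. The newly listed site was thus lowest where the reference share was highest, but in MidK2 at day 29 it lay nearer the reference share. Of its 5 pairs 2 were called against the reference reads only, 2 against neither and 1 against both. The gene's other newly listed site, 7668578, had 92.0 to 100% variant reads in 4 libraries. Of its 4 pairs 2 were called against the variant reads only and 2 against both. At Bgn 73494847 (Bgn encodes the matrix proteoglycan biglycan) the variant share was 10.7, 8.0 and 16.0% in MidK2 at days 18, 29 and 36 beside reference shares of 69.4, 90.4 and 80.4%, and all 3 pairs were called against the reference reads only. In MEF1 and MEF2, however, the reference share of Bgn was 3.71 and 1.14%, at median coverages of 2115 and 2594 reads. Neither MEF table listed 73494847, so its low share there is unlike the variant share of the gene. The allele that carries it was not tested. The 3 sites of Fundc1, a mitophagy receptor chosen after its values were seen, had mean shares of 60 to 68.8% beside mean reference shares of 34.5 to 41.0%. None of their 8 pairs was called against the variant reads and 3 were called against the reference reads.

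Kdm5c, an escape gene that encodes a histone demethylase, was read from both alleles in fibroblasts as well, with reference shares of 37.5 and 42.2% over 20 sites in MEF1 and MEF2. Its intronic site 152259282 had 65.4% variant reads in LowK at day 56 and 55.6 and 39.1% in MidK1 at days 35 and 56, with 23 to 36 reads, and its 3 sites had mean shares of 46.0 to 53.5%. Utp14a, which acts in ribosomal RNA processing, had 3 intronic sites with mean shares of 35.7 to 38.8% beside reference shares of 45.3 to 49.3%, and 6 of their 7 pairs were called against neither side. In Kdm5c 4 of 9 pairs were called against the reference reads only, 4 against neither and 1 against the variant reads only.

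**Figure D5:**
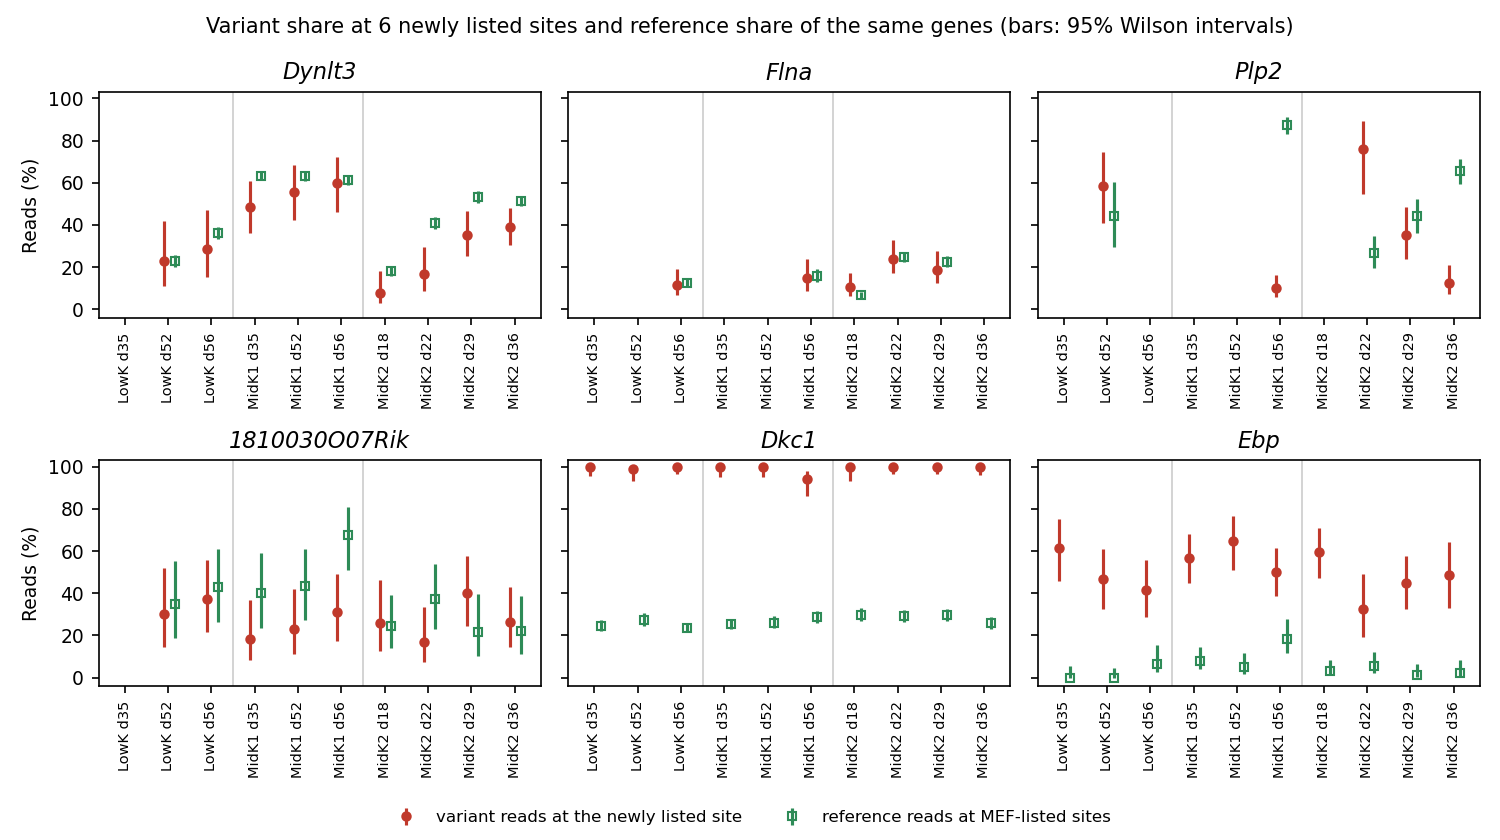
Variant share at 1 newly listed site (circles) and reference share at the MEF-listed sites of the same gene (squares) for 6 genes, in % of reads with 95% Wilson intervals, over the 10 reprogrammed libraries; libraries that did not list the site at 20 reads are empty. Circles and squares lie together in Flna, are high in the same libraries in Dynlt3, are opposed in Plp2 and stay apart in Dkc1 and Ebp.

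Sites called against both sides in most of their libraries were led by Dkc1 and Ebp. At Dkc1 75109201 the variant share was 94.1 to 100% in all 10 libraries beside reference shares of 23.7 to 29.9%, and Dkc1 75100552, in coding exon 7, behaved alike with 95.2 to 100%. That contrast came from 1 of the gene's 3 MEF-listed sites, the repeat position 75108247, with a median of 25.0% variant reads, whereas the other 2 had medians of 99.1 and 97.8%. Against MEF-listed sites with 90% or more variant reads in both MEF tables, none of the 10 pairs of either site was called against the variant reads. Ebp encodes a sterol isomerase, and its site 8185402, in the 3′ untranslated region at a listed indel, had 61.5, 46.5 and 41.7% variant reads in LowK, 56.9, 64.7 and 50% in MidK1, and 59.7, 32.4, 44.6 and 48.6% in MidK2. The reference share at the single MEF-listed site of Ebp was 0 to 18.4%, and all 10 pairs were called against both. The neighbouring Ebp site 8185376 had a mean of 91.3%.

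Gene lists were chosen with earlier results of these data known. Newly listed sites occurred in 5 of 7 escape genes with an MEF-listed site (1810030O07Rik, Bgn, Kdm5c, Pbdc1 and Utp14a). They occurred in 8 of 24 such housekeeping genes and 4 of 17 such fibroblast-expressed genes (Bgn, Flna, Msn and Plp2). Of 21 pluripotency or germline genes only Tfe3 had an MEF-listed site, and of 11 X-inactivation centre genes only Rlim. Both of these held newly listed sites. Over all genes with an MEF-listed site the figure was 57 of 165, or 34.5%. Of the 16 sites in escape genes 13 had mean shares of 20 to 80%, 6 of them in 1810030O07Rik. Over all 202 newly listed sites 35 had such shares. In the MEF libraries the reference share was 4.17 and 9.09% in 1810030O07Rik and 3.71 and 1.14% in Bgn, against 25.0 to 43.7% in Kdm5c, Pbdc1 and Utp14a. Of the 19 sites in housekeeping genes 13 were above 80%, 10 of them in Eif1ax. Over all 202 newly listed sites 104 were above 80%. Sites of 1 gene share reads, so these counts are descriptions. Among fibroblast-expressed genes, Msn, which links actin to the membrane, had 1 site, 96168160, with 21.4% variant reads in MidK1 at day 35 and 6.61 and 6.25% in MidK2 at days 29 and 36, beside reference shares of 10.8, 33.1 and 6.67%. It was called against both sides in MidK2 at day 29, 26.5 points below the reference share, and against the variant reads only in the other libraries.

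The courses were compared library by library at sites covered 20 or more times in both, with Fisher's exact test adjusted over all sites of the pair and the same limit of 20 points. MidK1 against LowK called 0 of 28 newly listed sites at day 35 and 0 of 29 at day 52, where 10.4% and 10.9% of all sites were called, and 0 and 2 had an unadjusted exact p under 0.05. At day 56 it called 1 of 42, with 5 at an unadjusted exact p under 0.05, where 8.7% of all sites were called. That site was Hnrnph2 134606279, in the 3′ untranslated region of an RNA-binding splicing regulator, which had 92.9% variant reads (26 of 28) in LowK and 56.7% (17 of 30) in MidK1, a fall of 36.2 points (Fisher's exact test, adjusted p = 0.0250). Its other libraries ranged from 54.2 to 100%. Among them, at day 52, LowK had 94.1% (32 of 34) and MidK1 100% (27 of 27), a difference in the other direction that was not called. Median differences at the 3 days were 0, 0 and -2.57 points, against -2.16, -2.41 and -3.62 points for all sites. Over the 3 days 1 of 99 comparisons was called. With sites chosen by MEF2 alone 54 of 459 were called, by MEF1 alone 11 of 283, and at 10 or more reads 66 of 1148. The choice of MEF table leaves the shares over all sites as given above, and 54 of 459 is near them. The share over all sites at 10 or more reads is not given here.

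Within courses 1 of 343 comparisons of newly listed sites was called. LowK at day 56 against day 35 called 0 of 34 (1.9% of all sites), MidK1 at day 56 against day 35 called 0 of 40 (2.09%), MidK2 at day 22 against day 18 called 0 of 92 (1.61%) and at day 29 against day 22 called 0 of 90 (0%). Unadjusted exact p-values under 0.05 numbered 0, 3, 3 and 2. At day 36 against day 29 MidK2 called 1 of 87 (2.4% of all sites), with 5 at an unadjusted exact p under 0.05. It was Plp2 7671247, which went from 19 of 54 to 11 of 87 variant reads, a fall of 22.5 points (Fisher's exact test, adjusted p = 0.0419).

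Only 13 sites in 7 genes were listed in all LowK and MidK1 libraries. Their median variant share was 99.1% ± 1.56 (SD, n = 3 libraries) in LowK and 97.9% ± 2.08 (SD, n = 3 libraries) in MidK1, a difference of -1.23 points (two-sided exact permutation test, p = 0.7). Days of a course are not replicates, and the 20 possible splits cannot give a p below 0.1. By day the difference was -2.22, 2.70 and -4.17 points at days 35, 52 and 56.

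The coverage limit cut through a continuous range. At 16 sites the second highest coverage was exactly 20, with mean shares of 10.5 to 99.0% and a median of 95.5%. At 21 positions that missed the rule with a second highest coverage of 19, mean shares ran from 28.3 to 100% with a median of 96.6%.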

How the data were processed

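The authors deposited 12 tables of X-chromosome variants called with the CLC Basic Variant Call tool, per the series description, on the mm10 build, which the submitters' processing notes name. The aligner and the caller's settings were not given in the sources used here. Variant and total read counts per position are the deposited values, and the deposited percent is their ratio. An average quality score, per the file headers, is given in 7 tables. Only single-base variants were used, with the best-read allele per position and a coverage of 20 or more. Sites, gene lists, tests and the rule for named sites were chosen with earlier results of these data known. Named were the 12 genes with most sites (ties broken by summed coverage), the 10 sites with the highest summed coverage (at most 2 per gene), genes called in MidK1 against LowK on 2 or more days (there were none), list genes that held sites, up to 6 sites called against both sides in most libraries, and the 3 lowest and 3 highest means; other names were chosen after their values were seen. Values of 1 gene that the rule names are not reported here, though its sites remain in all totals.

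Features and windows came from GENCODE M21, whose transcripts matched the reference base at all 3074 exonic sites compared. The 20 intronic sites have no sequence here. Intervals are Wilson (shares) and Newcombe (differences) at 95% and, like the tests, cover counting error only, since reads were counted without molecular identifiers. Fisher's exact tests used SciPy 1.17.1 and were tested on simulated data. Alternatives changed coverage, listing limits, MEF-listed sites, table number, size limit, base quality and the MEF tables used.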

Additional observations from a re-analysis of the deposited data

How the results depend on the processing

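The labels give no replicate numbers that pair libraries. With day as the block, chosen after seeing the data, the MidK1 minus LowK median stayed at -1.23 points (two-sided exact sign-flip permutation of 3 day-matched pairs, p = 0.75, the smallest possible being 0.25). The 202 sites became 1247 at 10 or more reads, 5 at 50 or more, 57 with 1 site per gene, and 452 to 504 when 1 MEF table alone was used (504 without MEF1, 452 without MEF2). Pairs called against the reference reads (607 of 873) numbered 5496 of 6345, 2 of 21, 159 of 257 and 1660 to 1954 under those settings. Pairs called against the variant reads (325) numbered 690, 16, 114 and 495 to 680. With 1 site per gene the shares over all pairs stay at 86.6 and 12.6%. For the other settings they are not given here, so these counts describe the settings only. The median difference from the reference share, 84.9 points, was -2.65 at 50 or more reads, 35.1 with 1 site per gene and -0.29 over the 178 pairs with reference shares of 20 to 80%, an alternative chosen after seeing the data, where 76 and 116 pairs were called. Without Dkc1 these were -2.83 points, 40 and 59 of 117 pairs. The single call of MidK1 against LowK became 66 at 10 or more reads, 0 of 1 at 50 or more (0 at an unadjusted Fisher's exact p under 0.05) and 11 to 54 with 1 MEF table. The single call within a course became 3 with either MEF table alone, and 0 by Fisher's exact test at 10 or more reads, at 50 or more and with a limit of 30 points, where 86, 1 and 13 had an unadjusted exact p under 0.05. In these library comparisons the shares over all sites were unchanged with 1 MEF table and are not given here for the other settings.

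Among 26 named sites under 263 settings, 232 values stayed within the spread between libraries, 27 moved further and 4 changed sign: Plp2 7671247 gave 28.6 points at 10 or more reads, Dkc1 75108250 gave 7.94 against MEF-listed sites of 90% or more and 8.41 against the most deeply read one, and Ammecr1 142853518 gave -8.21 without MEF1 and 14 without MEF2. The causes were not tested. Coverage near 20 reads gives each share a wide interval.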
